A study of Homo sapiens with 16 samples.

Results

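Downstream-of-gene transcripts (DoGs) are stretches of RNA that continue past the annotated end of a gene. The DoGs described here start from genes of the transcription and 3′ end processing machinery, which were chosen by name alone: RNA polymerase subunits, TAF proteins, general transcription factors, Mediator, elongation factors, Integrator, cleavage and polyadenylation factors, the RNA exosome and polymerase-associated proteins. Of the 3139 DoGs with a listed FPKM, 42 began at such a gene. In the annotation, 203 protein-coding genes carry a matching name. The 42 comprised 10 polymerase subunits, 4 TAF genes, 4 other general factors, 7 Mediator subunits, 5 elongation factor genes and the SAGA gene SUPT7L, which shares their SUPT name, 4 Integrator subunits, 5 cleavage and polyadenylation genes, 1 exosome subunit and RPAP3.

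The cells were HEK293, a line derived from human embryonic kidney, of wild-type genotype in all groups. They were kept in standard medium as the control or treated for 9 h with 200 mM sorbitol, which raises osmotic pressure, and 100 μg/mL cycloheximide, which blocks translation (the DoG-inducing condition). RNA came from conventional acid phenol extraction, from hiAGPC, which adds heating, or from SERIPH, in which the 1st step takes the aqueous phase and the 2nd step recovers RNA from the washed interphase by heating. The 8 groups of condition and preparation had 2 biological replicates each, which gave 16 rRNA-depleted libraries of total RNA. Both agents were given together, so their separate shares in any difference cannot be told apart. The treated cells are 1 cell line at 1 time point.

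As background, transcription by RNA polymerase II ends after the nascent RNA is cut at the poly(A) signal. The CPSF complex reads the AAUAAA hexamer, CstF binds the GU-rich element behind it, PAPOLA adds the poly(A) tail, and the nuclease XRN2 degrades the RNA still attached to the polymerase. Integrator cuts snRNA and other nascent transcripts and releases promoter-proximal polymerase. When cutting fails, as after osmotic stress, the polymerase runs on and the readthrough RNA stays in the nucleus. RNAs that are poorly released by conventional acid phenol extraction and recovered by heating are called semi-extractable.

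A DoG is read from the end of its gene onward, and 6 starts are shown because the results below turn on these genes. INTS6 had the largest increase under the DoG-inducing condition, PAPOLA the longest region and INTS7 a region in all DoG-inducing libraries. GTF2H1 was lowest in the interphase, EXOSC6 was listed under control conditions alone, and POLR1E was listed in every library. The first 60 bases past the gene end are given 5′ to 3′ on the transcribed strand of GRCh38, with each TGTG, a GU-rich tetramer, in capitals.
INTS6, chr13:51354017-51354076, minus strand: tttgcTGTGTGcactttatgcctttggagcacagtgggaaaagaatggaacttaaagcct
PAPOLA, chr14:96567119-96567178, plus strand: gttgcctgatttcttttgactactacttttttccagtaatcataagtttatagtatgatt
INTS7, chr1:211940339-211940398, minus strand: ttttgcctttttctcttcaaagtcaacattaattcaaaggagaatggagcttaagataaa
GTF2H1, chr11:18367046-18367105, plus strand: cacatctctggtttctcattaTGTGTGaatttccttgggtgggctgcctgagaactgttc
EXOSC6, chr16:70246718-70246777, minus strand: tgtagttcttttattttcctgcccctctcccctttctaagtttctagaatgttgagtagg
POLR1E, chr9:37503702-37503761, plus strand: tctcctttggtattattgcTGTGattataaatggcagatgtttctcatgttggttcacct

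None of these 6 windows holds an annotated exon. The INTS6 window lies inside SERPINE3, a gene on the opposite strand, and the other windows lie in no annotated gene. Over the 42 DoGs, TGTG stood in the first 60 bases of 16 (38.1%), against 38.8% of the 3135 DoGs whose start could be read. The hexamer AATAAA or ATTAAA, searched on the transcribed strand, stood in the 50 bases before the start of 24 (57.1%), against 65.7% of all. These matches describe the letters and not the use of a site.

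The listed region started within 1 kb of the gene end in GENCODE v44 for 40 of the 42 genes. Exceptions were CPSF6, where it began 5472 bp further on, and POLR2E, where it began 1471 bp further on. For 5 genes the annotated end lies more than 1 kb past the last protein-coding transcript, at distances of 22.4 kb for MED4, 22 kb for POLR3A, 7.49 kb for INTS6, 7.40 kb for CSTF3 and 5.62 kb for TAF1D. The 42 genes lie on 18 chromosomes, 13 on the plus and 29 on the minus strand, with a median gene length of 39.9 kb against 31.9 kb for all DoG-producing genes. The region over which FPKM was measured had a median length of 30 kb in both sets. The longest region reached a further protein-coding gene on the same strand for 14 members (33.3%, against 20.6% of all DoGs), so the FPKM may hold reads of that neighbour. Such neighbours included LDHA behind GTF2H1, WDR33 behind POLR2D, LPGAT1 behind INTS7, VRK1 behind PAPOLA and POLH behind POLR1C. For 21 members (50%, against 58.6%) the region reached no gene on the same strand.

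The regions were listed for a library where coverage past the gene end continued for at least 10000 bp. Between replicates of a group, log2 values of all DoGs correlated with a Pearson r of 0.945 to 0.993 across DoGs, which are not independent replicates, with the lowest value in the SERIPH 1st-step fraction of treated cells. The table joins DoGs found in any library, and most of them were listed in no control library. A higher level under the DoG-inducing condition is therefore bound up with how these DoGs entered the table, and counts of increases are a description. FPKM is scaled within a library and listed in steps of 0.01, so the depth is unknown, and more DoG RNA cannot be told apart from less of other RNA.

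Members were listed mostly in heated preparations of treated cells. The SERIPH 2nd-step libraries of treated cells listed 31 and 30 of the 42, and the hiAGPC libraries 22 and 23. The conventional libraries of treated cells listed 7 and 7, as did the SERIPH 1st-step libraries. Under control conditions the SERIPH 2nd-step libraries listed 11 and 13, hiAGPC 7 and 7, the SERIPH 1st-step fraction 6 and 6, and the conventional preparation 5 and 5. The libraries did not overlap in any of the 10 comparisons of conditions or preparations, and the two-sided exact permutation test gave p = 0.333 in each, the smallest value that 2 libraries against 2 allow.

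Counting a gene where both replicates listed it, 27 members were found in the SERIPH 2nd-step fraction of treated cells (background 64% of all DoGs) and 21 in hiAGPC (44.3%). The conventional preparation of treated cells held 6 (9.72%) and the SERIPH 1st-step fraction 5 (8.09%). In control cells the counts were 10 for the interphase 2nd step (18.2%), 7 for hiAGPC (12.9%), 5 for the aqueous 1st step (6.91%) and 3 for conventional extraction (8.73%). As shares of the members these ranged from 7.14% to 64.3%, against 6.91% to 64% of all DoGs.

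Across all libraries, 28 members (66.7%, against 74% of all DoGs) were listed under the DoG-inducing condition alone, 6 (14.3%, against 12%) under control conditions alone and 8 (19%, against 13.8%) under both. The 6 listed in control cells alone were EXOSC6, a subunit of the RNA exosome, GTF2E2 and GTF2F2, subunits of TFIIE and TFIIF, the elongation factor TCEA1 (TFIIS), and POLR2J2 and POLR2J3, copies of the gene for a polymerase II subunit. All 4 TAF genes were listed under the DoG-inducing condition alone, as were 3 of 4 Integrator genes, 4 of 5 elongation factor genes and 7 of 10 polymerase genes. The same held for 4 of 7 Mediator genes, 3 of 5 cleavage and polyadenylation genes, 2 of 4 other general factors and SUPT7L. It did not hold for EXOSC6 or RPAP3. Heated libraries alone listed 24 of the members (57.1%, against 75.3% of all DoGs). POLR1E, a subunit of RNA polymerase I, was the 1 member found in all 16 libraries, and SUPT7L, a subunit of the SAGA coactivator, the 1 member found in no heated library. GTF2F2, MED25, NELFCD, POLR2B, POLR2E, SUPT7L, TAF5L and TCEA1, 8 members in all, were listed in exactly 1 library each.

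**Figure D1:**
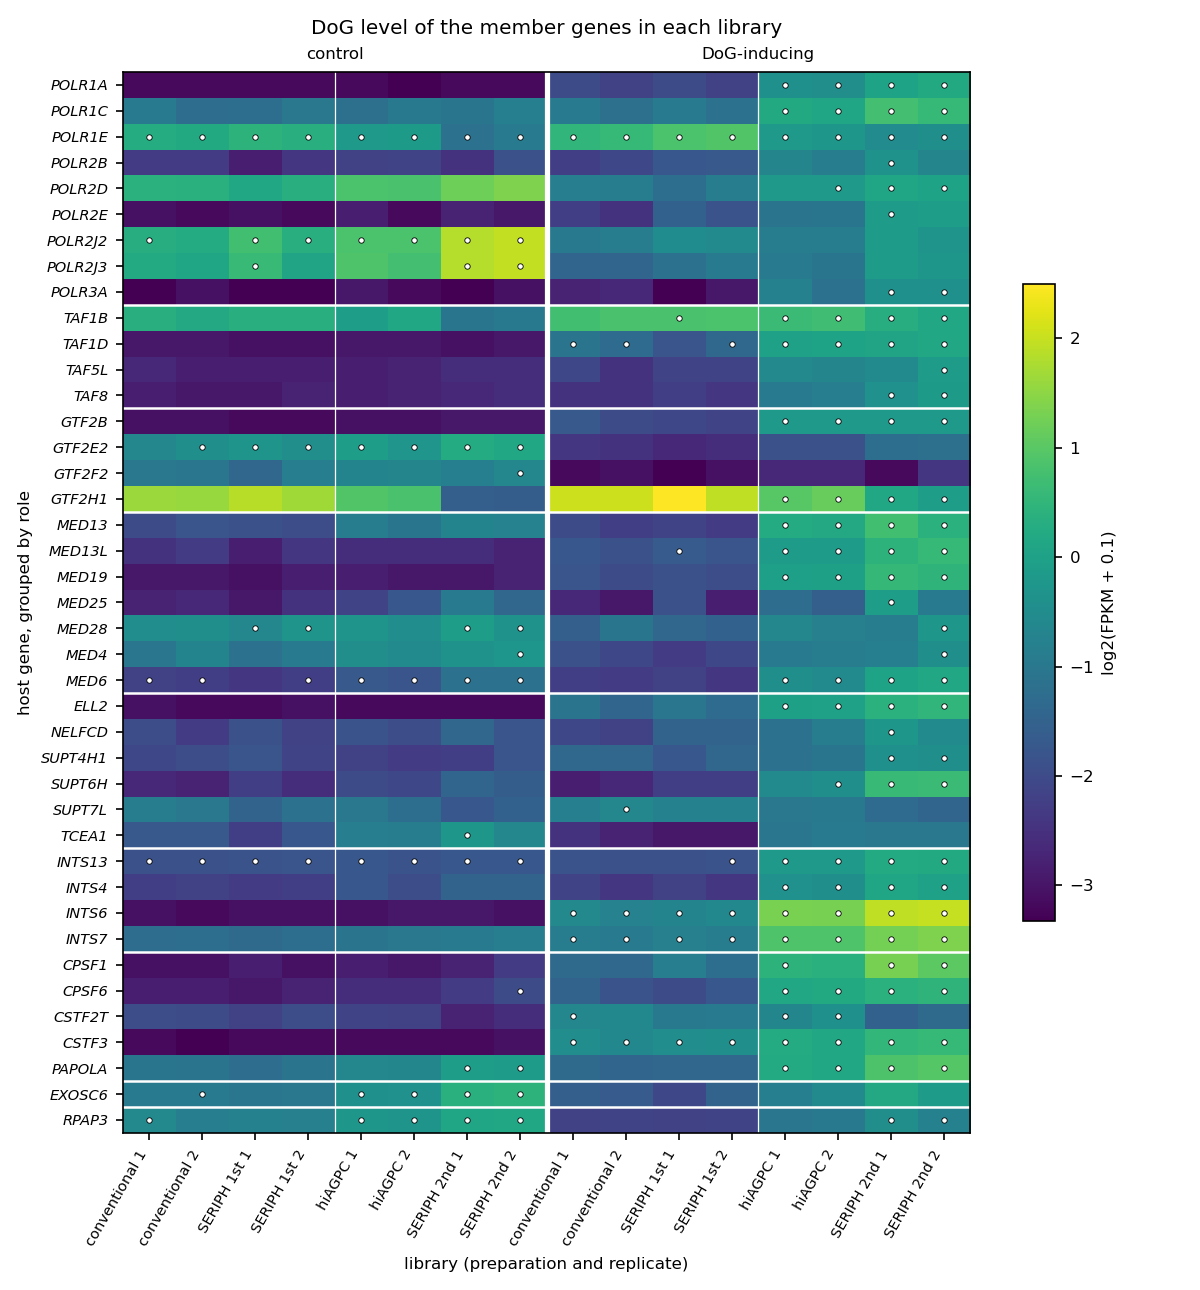
Heat map of the DoG level, as log2(FPKM + 0.1), of 41 of the 42 host genes (rows, grouped by role, with SUPT7L beside the elongation factors) in the 16 libraries (columns). A white dot marks a library in which the DoG region was listed, and the dots crowd into the hiAGPC and SERIPH 2nd-step libraries of treated cells, which list 22 to 31 of the 42 each, against 5 to 13 in the control libraries.

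Levels were compared with limma on the scale log2(FPKM + 0.1), fitted to every DoG of the table in the 16 libraries. A DoG was called at a Benjamini-Hochberg adjusted p under 0.05 and a log2 fold change of 1 or more in size. In the SERIPH 2nd-step fraction, 29 members were called higher under the DoG-inducing condition (background 74.6% of all DoGs) and 5 lower (11.7%). Their median log2 fold change was 1.61, against 2.38 over all DoGs. In hiAGPC, 25 were called higher (70.2%) and 5 lower (9.14%), with medians of 1.32 and 1.86. In the conventional preparation, 11 were called higher (22.2%) and 7 lower (11%), with medians of 0.26 and 0.44. The aqueous 1st step had 11 called higher (21.8%) and 7 lower (10.6%), with medians of 0.44 and 0.43.

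The direction of these counts depends on the scale. Setting the median DoG of every library to 0 removed a shift of 2.25 (SERIPH 2nd step), 1.92 (hiAGPC), 0.56 (conventional) and 0.50 (1st step) on the log2 scale. On this centred scale 7 members were called higher and 17 lower in the 2nd step (57.1% called, against 46.7% of all DoGs). In hiAGPC 5 were called higher and 17 lower (52.4%, against 42.5%). The aqueous preparations gave 5 members higher and 10 lower (conventional) and 4 and 10 (1st step). Over all DoGs the counts higher and lower were 581 and 886 (2nd step), 435 and 900 (hiAGPC), 270 and 614 (conventional) and 279 and 583 (1st step). By role, the cleavage and polyadenylation genes and the TAF genes kept a positive median in both heated preparations, with 0.34 and 0.03 in the 2nd step and 0.81 and 0.11 in hiAGPC. All other roles had a negative median after centring, so the counts by role given below hold on the uncentred scale. INTS6, CPSF1, CSTF3 and ELL2 kept a log2 fold change above 1 on the centred scale in both heated preparations, at 2.7, 1.45, 1.42 and 1.39 in the 2nd step and 2.40, 1.37, 1.47 and 1.26 in hiAGPC.

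**Figure D2:**
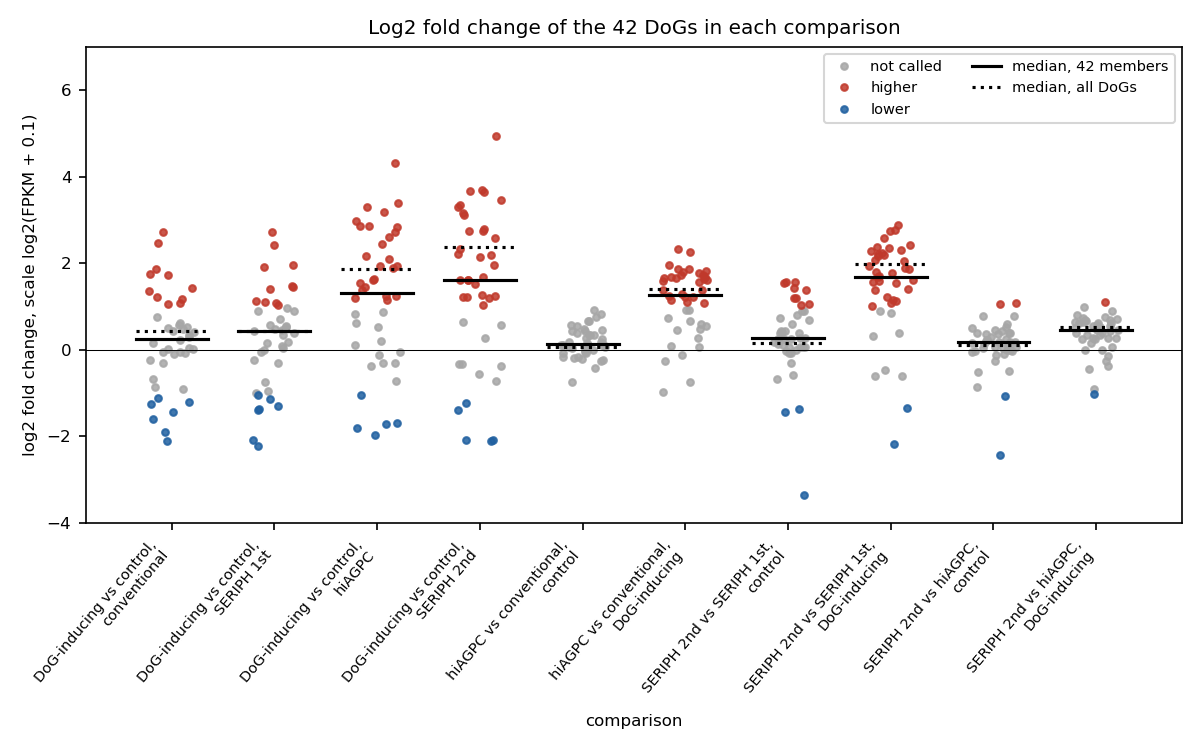
Log2 fold change of each of the 42 DoGs (points) on the scale log2(FPKM + 0.1) in 10 comparisons, with called DoGs in red (higher) and blue (lower), and medians of the members (solid line) and of all DoGs (dotted line). The members reached 4.95 (INTS6) under the DoG-inducing condition in the SERIPH 2nd-step fraction, while their median of 1.61 lay below the 2.38 of all DoGs.

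Among the polymerase genes, 6 of 10 were called higher and 3 lower in treated cells in both heated preparations. Over all DoGs 74.6% were called higher and 11.7% lower (2nd step), and 70.2% and 9.14% (hiAGPC). After centring the polymerase counts were 2 higher and 4 lower (2nd step, 46.7% of all DoGs called) and 0 and 4 (hiAGPC, 42.5%). POLR1A, the largest subunit of RNA polymerase I, was at 0 to 0.01 in all control libraries and at 0.93 and 1.06 in the SERIPH 2nd-step fraction of treated cells. POLR3A, the largest subunit of RNA polymerase III, lay between 0 and 0.03 in control libraries and reached 0.66 in both SERIPH 2nd-step libraries of treated cells, against 0 and 0.03 in the 1st step. Its log2 fold change between the 2 steps in treated cells was 2.74 ± 0.16 (SE, limma adjusted p = 3.72e-09). POLR1C, shared by RNA polymerases I and III, moved from 0.38 and 0.47 in control to 1.6 and 1.39 in the treated 2nd step.

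The 2 polymerase genes with the largest fall in the 2nd step were POLR2J2 and POLR2J3. POLR2J2 had FPKM of 3.52 and 3.76 in the SERIPH 2nd-step fraction of control cells and 0.83 and 0.70 in treated cells. The log2 fold change was −2.12 ± 0.12 (SE, limma adjusted p = 2.03e-09). POLR2J3 went from 3.51 and 3.81 to 0.81 and 0.75, a log2 fold change of −2.09 ± 0.14 (limma adjusted p = 1.55e-08). In hiAGPC the log2 fold changes were −1.72 ± 0.12 for POLR2J2 and −1.81 ± 0.14 for POLR2J3 (limma adjusted p = 2.03e-08 and 8.00e-08). POLR2J2 and POLR2J3 are near copies, and their regions reach the likewise paired genes UPK3BL1 and UPK3BL2. Reads that match both copies were dropped in the alignment, so their values rest on the remaining reads and are uncertain.

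POLR2D, which pairs with another small subunit in a stalk of RNA polymerase II, was listed in treated libraries alone although its level was lower there. Its FPKM was 2.21 and 2.49 in the SERIPH 2nd-step fraction of control cells and 0.97 and 0.93 in treated cells, and it was called lower in all 4 preparations. FPKM was measured over the longest region, 115 kb in the first SERIPH 2nd-step replicate of treated cells, which reaches WDR33. The part of WDR33 reads in this level was not tested.

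All 4 TAF genes were called higher in the SERIPH 2nd-step fraction (background 74.6% of all DoGs) and 3 of 4 in hiAGPC (70.2%). After centring, 0 were called in the 2nd step (46.7% of all DoGs), and 1 higher and 1 lower in hiAGPC (42.5%). TAF1D, a subunit of the SL1 factor of RNA polymerase I, rose from 0.02 and 0.03 to 0.95 and 1.00 in the 2nd step. TAF8, a subunit of TFIID, went from 0.06 and 0.07 to 0.67 and 0.80, and TAF5L, a SAGA subunit, from 0.07 and 0.07 to 0.58 and 0.81. TAF1B, another SL1 subunit, had more signal in aqueous than in interphase RNA. Its control values were 1.17 and 1.17 in the 1st step and 0.38 and 0.41 in the 2nd step, a log2 fold change of −1.36 ± 0.09 (SE, limma adjusted p = 2.61e-07). Between the 2nd step and hiAGPC in control cells TAF1B was at −1.07 ± 0.09, and at −0.96, short of the threshold, without the second control hiAGPC replicate.

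The other general factors split by direction. GTF2B (TFIIB) was called higher in all 4 preparations and reached 0.78 and 0.77 in the treated 2nd step from 0.03 and 0.03. GTF2E2 and GTF2F2 were called lower in all 4. GTF2F2 lay between 0.28 and 0.55 in the 8 control libraries and between 0 and 0.09 in the 8 treated libraries, which did not overlap. Its log2 fold changes were −2.11 ± 0.22 in the conventional preparation, −2.07 ± 0.22 in the SERIPH 1st-step fraction, −1.97 ± 0.22 in hiAGPC and −2.07 ± 0.22 in the 2nd step (SE, limma adjusted p of 4.03e-06 or less). GTF2E2 had 1.09 and 1.01 in the control 2nd step and 0.33 and 0.34 in the treated one. In the aqueous preparations the fall of GTF2E2 was −1.91 ± 0.09 (conventional) and −2.21 ± 0.09 (1st step) on the log2 scale (SE, limma adjusted p = 5.65e-09 and 1.76e-09).

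GTF2H1, a TFIIH subunit, had more signal in aqueous than in heated libraries. Its FPKM was the highest of the members in the aqueous libraries, with 2.99 and 2.94 in the conventional and 3.56 and 3.07 in the 1st-step libraries of control cells. In treated cells the conventional libraries held 4.05 and 4.02 and the 1st-step libraries 5.53 and 3.74. The heated libraries were lower, with 1.78 and 1.66 (control) and 1.89 and 2.09 (treated) in hiAGPC, and 0.24 and 0.23 (control) and 1.01 and 0.85 (treated) in the 2nd step. In both conditions the order was thus aqueous, hiAGPC and interphase, without overlap. The 2 aqueous preparations overlapped in treated cells but not in control cells.

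Between the 2 SERIPH steps the log2 fold change of GTF2H1 was −3.35 ± 0.15 in control cells and −2.18 ± 0.15 in treated cells (SE, limma adjusted p = 9.29e-09 and 1.54e-08). In spite of this level, no aqueous or control library listed a GTF2H1 region, and the treated heated libraries listed it at 10 to 30 kb. The 30 kb region over which FPKM was measured reaches into LDHA, the gene of lactate dehydrogenase A, on the same strand. LDHA starts 27.5 kb past the end of GTF2H1, so the region holds only its first part. The part of LDHA reads in this level was not tested.

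The Mediator genes, which code for the bridge between activators and RNA polymerase II, gave 4 of 7 called higher in both heated preparations and 0 called lower. The background was 74.6% higher and 11.7% lower in the 2nd step, and 70.2% and 9.14% in hiAGPC. After centring the Mediator counts were 1 higher and 4 lower in the 2nd step and 0 and 3 in hiAGPC. All DoGs likewise had more called lower than higher, with 581 higher and 886 lower in the 2nd step and 435 and 900 in hiAGPC. The 4 called higher were MED13, MED13L, MED6 and MED19. MED13L, like MED13 a part of the Mediator kinase module, had 1.26 and 1.40 in the treated 2nd step, 0.83 and 0.81 in treated hiAGPC and 0.17 to 0.22 in the treated aqueous libraries, against 0.04 to 0.10 in all control libraries. MED19 lay at 0.02 to 0.05 in control libraries and at 1.36 and 1.28 in the treated 2nd step. MED13 was the member with the largest gain from conventional extraction to hiAGPC in treated cells, from 0.15 and 0.11 to 1.09 and 1.03, with a log2 fold change of 2.34 ± 0.13 (SE, limma adjusted p = 3.87e-09).

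MED4 was called lower in both aqueous preparations and was not called in either heated one. Its control values were 0.35 to 0.52 in the aqueous libraries, against 0.10 to 0.17 in treated cells. MED28 was not called in any preparation, with 0.84 and 0.68 in the control 2nd step and 0.45 and 0.74 in the treated one. MED25 had an uneven level in the treated 2nd step, 0.86 and 0.42. In control cells it was higher in the 2nd step (0.43 and 0.28) than in the 1st (0.03 and 0.08), a log2 fold change of 1.55 ± 0.33 (SE, limma adjusted p = 0.00217) that missed the threshold when the libraries of the comparison were fitted alone (adjusted p = 0.0509).

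Of the 5 elongation factor genes, 4 were called higher in the 2nd step (background 74.6%) and 3 in hiAGPC (70.2%), and 0 were called lower (11.7% and 9.14%). Together with SUPT7L, centring left 1 higher and 3 lower in each of these preparations (46.7% and 42.5% of all DoGs called). ELL2, a subunit of the super elongation complex, was called higher in all 4 preparations. Its FPKM was 0.01 or 0.02 in every control library, 0.27 to 0.39 in the treated aqueous libraries, 0.89 and 0.90 in hiAGPC and 1.22 and 1.32 in the 2nd step. The log2 fold change of ELL2 was 1.86 ± 0.12 in the conventional preparation and 1.96 ± 0.12 in the 1st step (SE, limma adjusted p = 3.65e-08 and 2.48e-08).

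SUPT6H, a histone chaperone that travels with RNA polymerase II, was called higher under the DoG-inducing condition in both heated preparations and in neither aqueous one. In treated cells it had 0.04 and 0.06 in the conventional preparation, 0.11 and 0.11 in the 1st step, 0.59 and 0.65 in hiAGPC and 1.43 and 1.45 in the 2nd step. Its log2 fold change was 2.26 ± 0.11 between hiAGPC and conventional extraction, 2.87 ± 0.11 between the 2 SERIPH steps and 1.10 ± 0.11 between the 2nd step and hiAGPC (SE, limma adjusted p = 8.99e-10, 5.24e-11 and 5.11e-06). SUPT7L was not called in any of the 4 preparations, with 0.26 to 0.55 in the aqueous libraries and 0.20 to 0.41 in the heated ones. TCEA1, the TFIIS factor that restarts stalled polymerase, was higher in the control 2nd step (0.74 and 0.55) than in the control 1st step (0.11 and 0.20), a log2 fold change of 1.56 ± 0.16 (SE, limma adjusted p = 6.79e-06).

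All 4 Integrator genes were called higher in both heated preparations (background 74.6% in the 2nd step and 70.2% in hiAGPC). Their medians were 2.08 in the 2nd step and 1.77 in hiAGPC, below the 2.38 and 1.86 of all DoGs. In each aqueous preparation 1 of 4 was called higher (22.2% conventional and 21.8% 1st step). After centring, 1 of 4 was called higher in each heated preparation (46.7% and 42.5% of all DoGs called in either direction). The centred medians were −0.17 and −0.14, against 0.13 and −0.06 over all DoGs. INTS6 was the gene called in the aqueous preparations and had the highest DoG level of all members in the treated heated libraries. It held 3.71 and 3.82 in the treated 2nd step, 2.40 and 2.37 in treated hiAGPC, 0.52 and 0.56 in the treated 1st step and 0.57 and 0.50 in the treated conventional preparation. All 8 control libraries lay between 0.01 and 0.03, at the rounding step of the table, so the size of the increase depends on the pseudocount. The log2 fold change of INTS6 was 4.95 ± 0.08 in the 2nd step, 4.31 ± 0.08 in hiAGPC, 2.41 ± 0.08 in the 1st step and 2.46 ± 0.08 in the conventional preparation (SE, limma adjusted p of 3.28e-10 or less).

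INTS7, a part of the Integrator backbone, had 2.31 and 2.49 in the treated 2nd step and 0.43 to 0.48 in the treated aqueous libraries. Its control values were 0.30 to 0.33 in the aqueous libraries, below the treated ones without overlap, and 0.37 to 0.46 in the heated libraries. INTS7 was not called between conditions in either aqueous preparation. INTS4, which belongs to the Integrator cleavage module, and INTS13 were likewise called higher in the heated preparations and not in the aqueous ones. INTS13 was level at 0.17 to 0.20 in all control libraries and at 0.17 or 0.18 in the treated aqueous libraries, and reached 0.79 and 0.78 in hiAGPC and 1.08 and 1.05 in the 2nd step. INTS13 was listed in all control libraries nevertheless, at 10 to 15 kb, and in 1 of the 4 treated aqueous libraries.

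The cleavage and polyadenylation genes were all called higher in the 2nd step (5 of 5, background 74.6%), with a median log2 fold change of 2.59 against 2.38 over all DoGs. In hiAGPC 4 of 5 were called higher (70.2%, median 2.73 against 1.86), and 4 of 5 in the conventional preparation (22.2%, median 1.36 against 0.44). The 1st step had 3 of 5 called higher (21.8%, median 1.12 against 0.43). After centring, 2 were called higher and 2 lower in the 2nd step, and 2 and 1 in hiAGPC (46.7% and 42.5% of all DoGs called). Each aqueous preparation then had 2 called higher and 0 lower (28.2% conventional and 27.5% 1st step). CSTF3, the scaffold of CstF, was the member with the largest increase in the aqueous libraries. Its FPKM was at most 0.02 in any control library, 0.62 and 0.56 in the treated conventional, 0.62 and 0.64 in the 1st-step, 1.09 and 1.01 in the hiAGPC and 1.35 and 1.38 in the 2nd-step libraries. The log2 fold change of CSTF3 was 2.72 ± 0.08 in the conventional preparation, 2.73 ± 0.08 in the 1st step, 3.39 ± 0.08 in hiAGPC and 3.67 ± 0.08 in the 2nd step (SE, limma adjusted p of 1.17e-10 or less). Between the 2 steps in treated cells its log2 fold change was 1.00 ± 0.08 (adjusted p = 6.72e-08), at the threshold. It was −0.98 on the centred scale and 0.99 without the first 1st-step or the second 2nd-step replicate.

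CPSF1, the largest subunit of CPSF, rose from 0.05 and 0.10 to 2.38 and 1.94 in the 2nd step, a log2 fold change of 3.70 ± 0.15 (SE, limma adjusted p = 1.05e-10), and by 3.29 ± 0.15 in hiAGPC (adjusted p = 4.38e-10). CPSF6, a subunit of cleavage factor I, went from 0.10 and 0.15 to 1.21 and 1.28 in the 2nd step. CSTF2T, an autosomal copy of the CstF subunit gene CSTF2, was highest in the conventional preparation (0.55 and 0.56) and hiAGPC (0.54 and 0.66) of treated cells and lower in the 2nd step (0.25 and 0.30). CSTF2 itself, XRN2, PCF11, CLP1 and CPSF3 had no DoG among those matched by name, neither with FPKM nor as a listed region.

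PAPOLA, the poly(A) polymerase, separated the preparations. In the aqueous libraries its level was 0.32 to 0.38 in control and 0.27 to 0.30 in treated cells, whereas the 2nd step held 0.84 and 0.81 in control and 1.72 and 1.86 in treated cells. The log2 fold change of PAPOLA under the DoG-inducing condition was −0.30 ± 0.08 in the conventional preparation, which was not called, and 1.03 ± 0.08 in the 2nd step (SE, limma adjusted p = 0.00433 and 5.90e-08). On the centred scale the latter turned to −1.22, and without the second treated 2nd-step replicate it was 0.98. Between the 2 steps PAPOLA rose by 1.06 ± 0.08 in control and 2.31 ± 0.08 in treated cells (SE, limma adjusted p = 6.79e-07 and 2.92e-11), and the control value was 0.98 without the first 1st-step replicate. Its FPKM region spans VRK1 and 4 further genes on the same strand.

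EXOSC6, a subunit of the exosome, which degrades RNA from its 3′ end, was the 1 decay gene with a DoG. In control cells it had 1.19 and 1.26 in the 2nd step, 0.66 and 0.67 in hiAGPC and 0.39 to 0.43 in the aqueous libraries. In treated cells the values were 1.04 and 0.83, 0.47 and 0.58, and 0.14 to 0.26. Treated libraries were thus below control libraries within each preparation, though EXOSC6 was called in none of these 4 comparisons. RPAP3, a chaperone cofactor in polymerase assembly, was called lower in both aqueous preparations, with 0.46 to 0.57 in control and 0.12 or 0.13 in treated libraries.

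**Figure D3:**
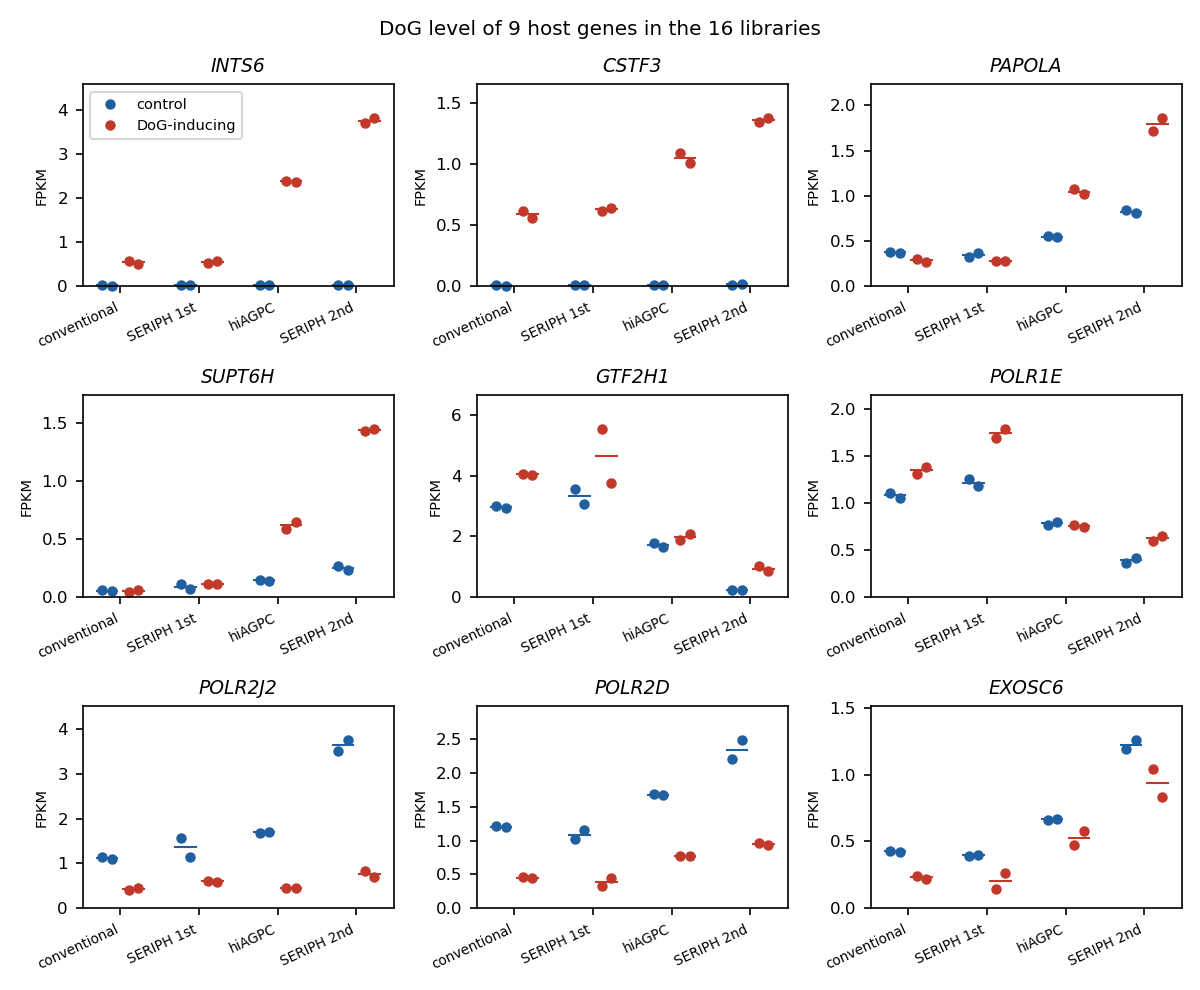
FPKM of 9 DoGs in the control (blue) and DoG-inducing (red) libraries of each preparation, with 1 point per replicate and a bar at the mean of the 2. INTS6 and CSTF3 are higher in treated cells in every preparation, PAPOLA and SUPT6H in the heated ones (both below 0 after centring), GTF2H1 and POLR1E are lowest in the 2nd step, and POLR2J2, POLR2D and EXOSC6 are lower in treated cells.

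The comparison of hiAGPC with conventional extraction bears on which DoGs are semi-extractable. Heated libraries alone listed 57.1% of the members and 75.3% of all DoGs, which entered the table that way. Counts of higher levels here, between the SERIPH steps and in the interaction are therefore a description. In treated cells 27 of the 42 members were called higher in hiAGPC (background 68.8%) and 0 lower (0.478%). Their median log2 fold change was 1.27, against 1.40 over all DoGs. After centring, 0 were called higher and 7 lower (16.7% called, against 19.5% of all DoGs, with 111 higher and 502 lower). MED13 (2.34), SUPT6H (2.26) and INTS6 (1.97 ± 0.08, SE, limma adjusted p = 4.10e-10) had the highest values. In control cells 0 members were called in either direction by limma (1.08% and 0% of all DoGs), while 19 (45.2%, against 25.5% of all DoGs) had an unadjusted p under 0.05. The treated and control comparisons were set against each other by an interaction term, in which 23 members had a larger log2 increase under the DoG-inducing condition in hiAGPC than in the conventional preparation (64%) and 0 a smaller one (0.733%). After centring, 0 were larger and 10 smaller (23.8% called, against 20.7% of all DoGs, with 109 larger and 542 smaller).

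Between the SERIPH steps, 33 members were called higher in the 2nd step of treated cells (79.3%) and 2 lower (2.96%). The median log2 fold change of the members was 1.69, against 1.99 over all DoGs. After centring, 0 were called higher and 9 lower (21.4% called, against 27.1% of all DoGs, with 211 higher and 639 lower). The 2 called lower were GTF2H1 and POLR1E, and MED13 was among the highest at 2.78 ± 0.13 (SE, limma adjusted p = 4.42e-10). In control cells 9 were called higher (11%) and 3 lower (3.28%). After centring these counts were 5 and 3 (19% called, against 11% of all DoGs, with 188 higher and 158 lower). The 9 were EXOSC6, MED13, MED25, MED6, PAPOLA, POLR2D, POLR2J2, POLR2J3 and TCEA1, led by POLR2J3 at 1.57 ± 0.14 (SE, limma adjusted p = 3.12e-06), and the 3 were GTF2H1, POLR1E and TAF1B.

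POLR1E was listed in all libraries and yet was lowest in the interphase. Its FPKM was 1.26 and 1.18 in the 1st and 0.36 and 0.42 in the 2nd step of control cells, and 1.70 and 1.79 against 0.60 and 0.65 in treated cells. The log2 fold change was −1.43 ± 0.08 in control and −1.35 ± 0.08 in treated cells (SE, limma adjusted p = 6.89e-08 and 5.38e-09). Its 30 kb FPKM region reaches no further protein-coding gene on the same strand, in contrast to that of GTF2H1, and 1 non-coding gene lies in it.

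The comparison of the 2nd step with hiAGPC asks what separation of the interphase adds to heating. In treated cells 1 member, SUPT6H, was called higher (background 6.91%) and 1, GTF2H1, lower (1.75%). The median log2 fold change was 0.46 against 0.52 over all DoGs, 35 of the 42 values were positive (83.3%, against 87%), and 33 members had an adjusted p under 0.05 without the fold threshold (78.6%, against 73.5%). After centring, 0 were called higher and 2 lower (4.76% called, against 3.7% of all DoGs, with 0 higher and 116 lower). GTF2H1 was at −1.02 ± 0.15 (SE, limma adjusted p = 7.28e-05), at the threshold, and at −0.95 or −0.91 without the second treated replicate of hiAGPC or of the 2nd step. In control cells POLR2J3 and POLR2J2 were called higher (0.86%), at 1.08 ± 0.14 and 1.06 ± 0.12, and GTF2H1 and TAF1B lower (1.47%), with GTF2H1 at −2.44 ± 0.15 (SE, limma adjusted p of 0.000225 or less). After centring, 0 were called higher and 3 lower (7.14% called, against 2.36% of all DoGs, with 5 higher and 69 lower). The interaction of condition and preparation was called for 1 member, GTF2H1 (5.58% of all DoGs called larger, 1.15% smaller). These comparisons share libraries with those above and are not independent of them.

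Region lengths were compared for genes listed in both replicates of both heated preparations. In treated cells 20 members qualified, with a median length of 58.8 kb in the 2nd step and 38.8 kb in hiAGPC and a median ratio of 1.26. The 2nd step had the longer mean region for 15 of the 20, the shorter for 2 and an equal one for 3, a share of 75.0% longer against a background of 75.1%. Among the 5 of them reaching no same-strand gene, 3 were longer, 1 shorter and 1 equal. For 4 of the 20 (20%, against 45.9% of the 1287 DoGs listed in these libraries), both 2nd-step replicates were longer than both hiAGPC replicates. These were MED13L (100 and 105 kb against 45 and 70 kb), TAF1D (110 and 115 against 85 and 85 kb), INTS4 (35 and 45 against 25 and 30 kb) and POLR1E (20 and 30 against 15 and 15 kb). In control cells 7 qualified, of which 5 were longer in the 2nd step, 0 shorter and 2 equal (background 47.2% longer), with a median ratio of 1.14. EXOSC6 was the 1 whose replicates did not overlap (14.3%, against 27.9% of 358 DoGs), with 47.3 kb in both 2nd-step libraries and 20 kb in both hiAGPC libraries.

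The largest ratios in treated cells came from single replicates. GTF2B had 20 and 145 kb in the 2nd step against 25 and 25 kb in hiAGPC, a ratio of means of 3.3. MED6 had 30 and 160 kb against 30 and 30 kb (3.17), and POLR1A 35 and 95 kb against 35 and 20 kb (2.36). In all 3 the shorter 2nd-step replicate was no longer than the longer hiAGPC replicate. The smallest ratios were those of INTS13, with 15 and 70 kb against 55 and 65 kb (0.708), and PAPOLA, with 230 and 568 kb against 423 and 398 kb (0.972). In both, the hiAGPC lengths lay between the 2nd-step replicates.

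The 5 longest regions in the treated 2nd step were those of PAPOLA (568 kb, chr14:96567119-97134846), INTS6 (270 kb, chr13:51084077-51354076), MED6 (160 kb, chr14:70421257-70581256), INTS7 (150 kb, chr1:211790399-211940398) and GTF2B (145 kb, chr1:88707633-88852632). All but that of GTF2B reach a further protein-coding gene on the same strand. These genes are VRK1 (PAPOLA), C13orf42 (INTS6), ADAM20 (MED6) and LPGAT1 (INTS7), and their part in the lengths was not tested. The INTS6 region had the same length, 270 kb, in all 4 heated libraries of treated cells and 40 kb in all 4 aqueous ones. The INTS7 region was 15 kb in the 4 aqueous libraries of treated cells and 105 kb in 3 of the 4 heated ones. MED13, which led the members in the comparison of hiAGPC with conventional extraction, was listed at 10 kb in all 4 heated libraries.

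**Figure D4:**
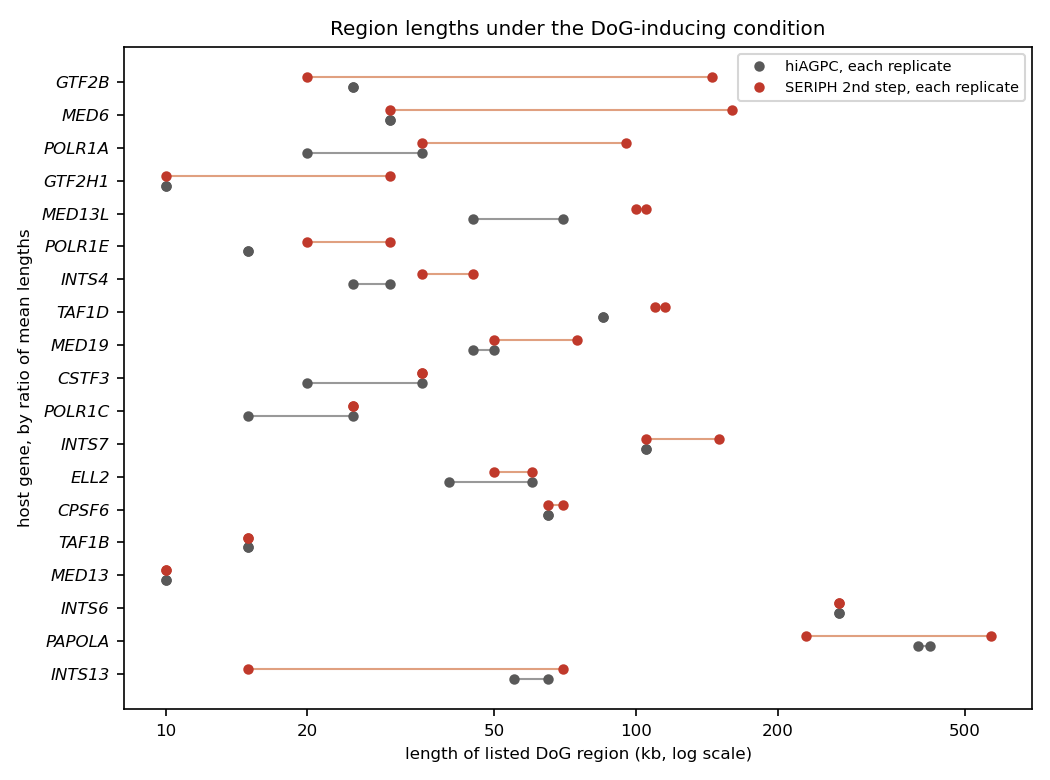
Length of the listed DoG region (kb, log scale) in each replicate of hiAGPC (grey) and of the SERIPH 2nd step (red) for 19 of the 20 members listed in all 4 libraries under the DoG-inducing condition, ordered by the ratio of mean lengths. Lines join the 2 replicates, and the wide red lines of GTF2B (20 and 145 kb) and MED6 (30 and 160 kb) show that their ratios rest on 1 replicate each.

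Genes of related function outside the naming rule, from a list of 93 that holds transcription kinases and cyclins, TBP, further cleavage factors, elongation factors and exosome cofactors, had 30 DoGs in the table. In treated cells 23 of these were called higher and 2 lower in the 2nd step, and 23 and 2 in hiAGPC, with medians of 2.33 and 1.92 (background 74.6% and 11.7%, and 70.2% and 9.14%, of all DoGs). After centring, 4 were called higher and 7 lower in the 2nd step, and 5 and 6 in hiAGPC. That is 36.7% called in each, against 46.7% and 42.5% of all DoGs. The conventional preparation and the 1st step each had 6 called higher and 3 lower (30.0% called, against 33.2% and 32.4%). Between the 2nd step and hiAGPC in treated cells 1 was called higher and 0 lower (3.33% called, against 8.67%).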

How the data were processed

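RNA from 16 HEK293 libraries in 8 groups of 2 biological replicates was analysed. Per the study's methods, the authors trimmed reads with fastp 0.25.0, removed ribosomal reads with Bowtie2 2.5.4, aligned with STAR 2.7.11b, kept unique reads, and ran ARTDeco on every library to call DoGs (minimum length 10000 bp, window 5000 bp, coverage 0.5). They deposited the regions and 1 FPKM per DoG and library, scaled to region length and library. The reads used for scaling are not given in the sources used here, and values come in steps of 0.01, so reads could not be recovered and depth is unknown. DESeq2 was the authors' tool for counts and was not run here.

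Of the gene identifiers listed with FPKM, 3131 matched GENCODE v44 on GRCh38, and 0 columns were left unassigned. Members, the list of related genes, tests and alternatives were chosen with earlier results of these data known. Levels were fitted on log2(FPKM + 0.1), which understates changes of low values, with limma 3.58.1 in R 4.3.3 (all libraries, intensity trend, Benjamini-Hochberg adjustment within each comparison), and the fit was tested on simulated data. The p-values rest on a single spread per DoG, pooled over the 8 groups of 2 libraries and moderated over all DoGs. They do not measure the spread of only the groups compared. Counts of listed members were compared by two-sided exact permutation. Python 3.11.15 with pandas 2.3.3 served for regions and sequences. Named in full are GTF2H1, CSTF3 and PAPOLA, the 3 highest and 3 lowest called members of each comparison, the highest member of each role, the longest regions and the extreme length ratios. Other values were chosen after they were seen. Values of 1 member are not reported here singly, and it is not drawn in the plots that name genes. Alternatives were pseudocounts of 0.01 and 1, a minimum mean FPKM of 0.1, median centring, blocking by replicate number, a fit to only the libraries compared, no trend, adjusted p alone, members reaching no same-strand gene, each replicate left out, listing in either replicate and a minimum of 20 kb.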

Additional observations from a re-analysis of the deposited data

Results flagged for a closer look

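In 2 comparisons of effects, an interaction term in limma separated the preparations. The first set the increase under the DoG-inducing condition in hiAGPC against that in conventional extraction, and 23 members passed, all with the larger increase in hiAGPC. The largest differences were 1.85 ± 0.19 for MED13L, 1.85 ± 0.12 for INTS6 and 1.81 ± 0.14 for MED19 (log2, SE, limma adjusted p = 1.59e-06, 3.59e-08 and 2.04e-07). After median centring these became 0.49, 0.49 and 0.45 and were not called. The share of members was below the 64% of all DoGs that passed.

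The second set the increase in the SERIPH 2nd-step fraction against that in hiAGPC, and 1 member passed. GTF2H1 had a difference of 1.42 ± 0.21 (log2, SE, limma adjusted p = 0.000293), with an increase of 1.62 ± 0.15 in the 2nd step (adjusted p = 2.78e-07) and of 0.20 ± 0.15 in hiAGPC (adjusted p = 0.210). After centring, the difference was 1.09 and was still called. Its FPKM region reaches into LDHA, and the part of LDHA reads was not tested.

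A further 5 genes that match the naming rule had listed regions but no FPKM and enter none of the comparisons. These were POLR3K, listed in 13 libraries at 10 to 35 kb, and GTF3C6, NELFA, NELFE and POLR2H, which were listed in treated libraries alone. POLR2H, a subunit shared by the RNA polymerases, had 382 kb in the first SERIPH 2nd-step replicate, was not listed in the second and had 10 kb in both hiAGPC replicates.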

How the results depend on the processing

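Numbers below are members called in either direction, in the order of the text. With a pseudocount of 1 in place of 0.1, the comparisons of conditions called 0 in the conventional preparation, 0 in the 1st step, 4 in hiAGPC and 10 in the 2nd step, in place of 18, 18, 30 and 34. It gave 1 for hiAGPC against conventional extraction in treated cells (27), 2 and 7 between the SERIPH steps in control and treated cells (12 and 35), 1 and 0 between the 2nd step and hiAGPC (4 and 2), and 1 and 0 for the interactions (23 and 1). Of 204 single calls, a pseudocount of 1 left 178 short of the threshold and reversed 0. With 0.01 the counts were 3 for hiAGPC against conventional extraction in control cells (0), 19 between the steps in control cells, 4 for the 2nd step against hiAGPC in treated cells and 2 for the second interaction. Without the fold threshold they were 32 and 35 between conditions in the aqueous preparations, 14 for hiAGPC against conventional extraction and 23 between the steps in control cells, 15 and 33 for the 2nd step against hiAGPC, and 16 for the second interaction. Centring gave 7 for hiAGPC against conventional extraction and 9 between the steps in treated cells, and 10 for the first interaction. It reversed 60 of 204 single calls and left 85 short of the threshold, since the shared shift is removed by construction. Of the values printed, those reversed were PAPOLA (−1.22) and GTF2H1 (−0.63) between conditions in the 2nd step, CSTF3 between the steps in treated cells (−0.98) and PAPOLA in the first interaction (−0.23 from 1.13).

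Among the 21 members reaching no same-strand gene, fewer by construction, 7, 8, 15 and 16 were called between conditions. These were 33.3%, 38.1%, 71.4% and 76.2%, against 33.2%, 32.0%, 80.2% and 86.7% of all DoGs reaching no same-strand gene. For hiAGPC against conventional extraction in treated cells 14 were called (66.7%, against 67.7%). Between the steps 3 and 17 were called (14.3% and 81.0%, against 12.8% and 81.8%). The 2nd step against hiAGPC gave 0 and 1 (against 1.41% and 8.65%), and the interactions 10 and 0 (against 61.7% and 5.22%). For the related genes, a pseudocount of 1 gave 8, 3 and 0 (2nd step, hiAGPC, and 2nd step against hiAGPC in treated cells, in place of 25, 25 and 1), centring 11, 11 and 0, and no same-strand gene 10 and 11, while 0.01 and no fold threshold gave 2 and 20 for the last.

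With 1 library left out, the counts ranged from 17 to 19, 17 to 21, 30 to 31 and 34 to 34 between conditions, 0 to 1 and 26 to 28 for hiAGPC against conventional extraction, 11 to 12 and 32 to 35 between the steps, 3 to 4 and 1 to 4 for the 2nd step against hiAGPC, and 23 to 24 and 1 to 1 for the interactions. The control count of 0 became 1 without the second control replicate of conventional extraction or of hiAGPC. The treated count of 2 became 4 without the first treated hiAGPC replicate and 1 without the second. Related genes gave 25 to 26, 25 to 26 and 0 to 1, with the 0 when the second treated hiAGPC or the first treated 2nd-step replicate was left out. The call of PAPOLA between the steps in control cells fell below the threshold (0.98) without the first control 1st-step replicate, that of CSTF3 in treated cells (0.99) without the first 1st-step or second 2nd-step replicate, and that of TAF1B (−0.96) without the second control hiAGPC replicate. A filter on mean FPKM, no trend and the libraries of a comparison alone left every count within 1.5 times.

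Listing in either replicate gave 7 in place of 3 (conventional, control) and 9 in place of 5 (1st step, treated). A minimum of 20 kb gave 0, 1, 3 and 5 in control cells (conventional, 1st step, hiAGPC, 2nd step) and 3 and 2 in the aqueous preparations of treated cells. Single replicates listed 5 to 5, 6 to 6, 7 to 7 and 11 to 13 in control and 7 to 7, 7 to 7, 22 to 23 and 30 to 31 in treated cells. The length ratio ranged from 1.0 to 1.25 in control and 1.0 to 1.43 in treated cells when 1 replicate was used.

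Per the study's methods both SERIPH steps come from one lysate and the other extractions ran beside each other on shared samples, but neither the methods nor the labels tie this to replicate numbers. Deviations of same-numbered replicates within a condition correlated at −0.073 to 0.057, which does not settle the pairing. A replicate block changed 0 of the 204 calls, with 34 members called in the 2nd step as before. FPKM without depth limits low values, which lie at the rounding step of 0.01.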
